A study of Rattus norvegicus with 16 samples.

Results

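Inner annulus fibrosus (IAF) cells are the disc cells with the transcripts of fibrocartilage that lie between the gelatinous core of the intervertebral disc and its fibrous rim. At 2 weeks after lumbar disc puncture (LDP) or no puncture (CON), 34885 of 93925 cells bore the subcluster number of the IAF cells in the authors' annotation, of 149272 cells in the whole series. CON held 15887 of them, with 4944, 574, 6577 and 3792 in rats 1 to 4. LDP held 18998, with 3144, 6645, 5417 and 3792. The other disc cells of the same 8 libraries were 35373 nucleus pulposus (NP) cells and 9424 outer annulus fibrosus (OAF) cells.

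The discs came from 4 male Sprague-Dawley rats, 8 weeks old at surgery. In each rat the discs L4–5 and L5–6 were stabbed once with a 27 G needle (LDP), and the unpunctured discs L2–3 and L3–4 of the same animal served as control (CON), so that puncture and lumbar level cannot be told apart. The 2 discs of a group were pooled within the rat, digested with pronase and collagenase, and read as 1 library of 10x Genomics 3′ single-cell RNA sequencing. Each rat thus gave 1 CON and 1 LDP library, and the library of a rat was the replicate throughout.

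The annulus fibrosus is built of concentric lamellae. Its inner lamellae blend into the NP and hold type II collagen and aggrecan, the water-binding proteoglycan of cartilage, and its outer lamellae hold the type I collagen of ligament and tendon and anchor the disc to the vertebrae. Cells of the inner annulus are round and resemble chondrocytes, whereas those of the outer annulus are elongated fibroblasts. Comp encodes a pentameric protein that helps collagen fibrils to assemble, and Fmod encodes fibromodulin, a small leucine-rich proteoglycan that binds fibrils.

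The deposited cells carried subcluster numbers 1 to 3 without names, and CON and LDP had been clustered apart. The names were settled by the shares of marker-positive cells that the study states for NP and OAF cells, which left number 2 of CON and number 1 of LDP for the IAF. Between IAF and NP cells these names set depth apart. At 1000 UMIs per cell, 6 of 1457 genes of at least 100 CPM in CON and 0 in LDP differed by more than 1 on the log2 scale. IAF cells had a median of 2442 to 3789 UMIs in the CON libraries and 4100 to 6403 in the LDP libraries, against 6997 to 10580 in NP cells of the 8 libraries, and the quartiles of IAF and NP cells did not overlap in any library. IAF cells ranged from 660 to 17802 UMIs and from 499 to 2321 genes. Ratios between classes are therefore given after 1000 UMIs were drawn from each cell, which left out between 0 and 246 IAF cells of a library with fewer.

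**Figure D1:**
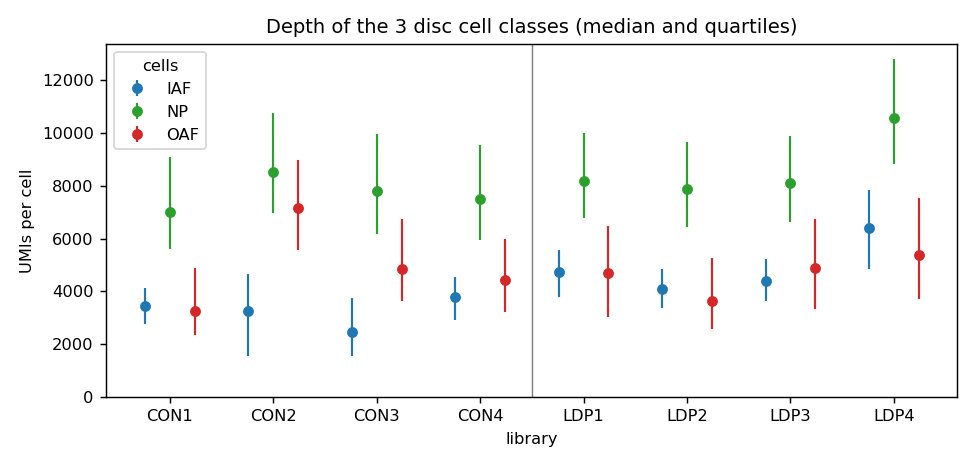
UMIs per cell (vertical axis) in the 8 libraries (horizontal axis), with the median as a point and the quartiles as a bar for IAF, NP and OAF cells. In every library the NP cells lie above the IAF cells, and the IAF cells of LDP4 are the deepest with a median of 6403 UMIs.

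Some libraries stood apart. The IAF cells of LDP4 had a mean ribosomal percentage of 16.7%, against 10.4 to 13.5% in the other 7 libraries, and 29.0% of them had UMIs of at least 2 erythroid markers, against 0 to 4.92%. In CON3 17.7% and in CON2 10.4% of the IAF cells had UMIs of at least 2 endothelial markers, against 0.13 to 1.11% elsewhere. CON2 had the fewest IAF cells. Library pairs shared 0.26 to 0.60% of the barcodes of the smaller library. No doublet caller was run.

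The 4 markers given for IAF cells were present in every library. Col2a1 and Acan were higher than in OAF cells, Comp was not in every library, Fmod was lower, and all 4 lay near their levels in NP cells. Mean CPM (a gene's UMIs per 1000000 UMIs of a cell, averaged over the IAF cells of a library) of Col2a1, the type II collagen gene, was 16205, 5734, 13466 and 10043 in CON and 17825, 8355, 12701 and 4857 in LDP. Both groups thus spanned a wide range, with rats 2 and 4 low in LDP and rat 2 low in CON. Acan was at 3303, 3135, 3252 and 3333 CPM in CON and 4040, 3969, 4414 and 2804 in LDP, where rat 4 alone lay below the CON libraries. Comp was at 8131, 9122, 9709 and 7344 CPM in CON, and all 4 LDP libraries lay within that range at 8069 to 8487. Fmod was at 1517 to 2079 CPM in CON and 1470 to 1904 in LDP, and the groups overlapped.

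**Figure D2:**
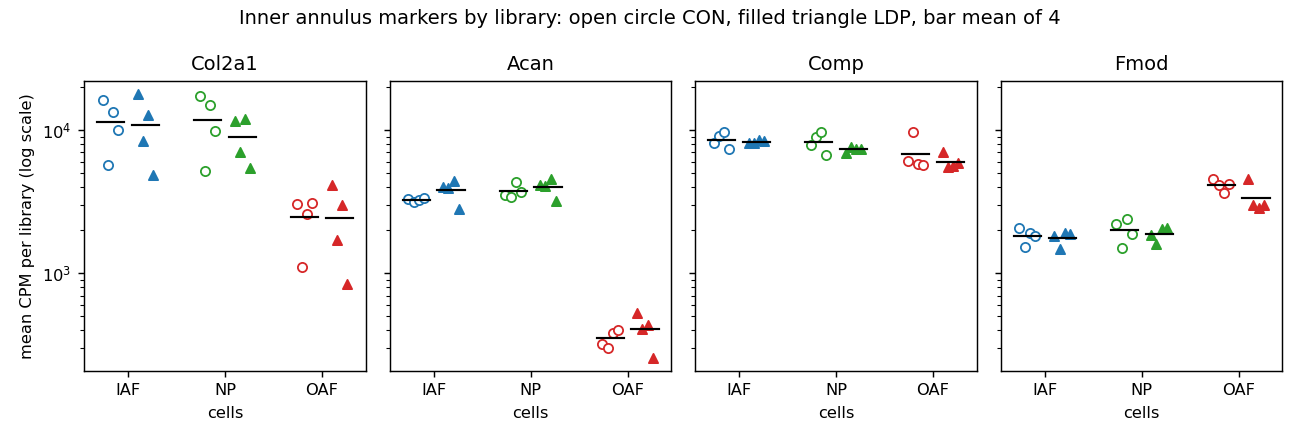
Mean CPM per library on a log scale (vertical axis) of the 4 IAF markers in IAF, NP and OAF cells, with open circles for CON, filled triangles for LDP and a bar at the mean of 4 libraries. Acan separates IAF and NP cells from OAF cells in every library, while IAF and NP cells lie at like levels for all 4 genes.

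Against OAF cells of the same library, the mean log2 ratio in CON at equal depth was 2.21 for Col2a1 (range over 4 libraries 1.69 to 2.43) and 3.21 for Acan (3.1 to 3.4). The ratio for Comp was 0.35 (−0.05 to 0.71), so that this gene did not separate the classes in every library. Fmod was lower in IAF than in OAF cells in 4 of 4 CON libraries, with a mean ratio of −1.21 (−1.5 to −0.95), and in 4 of 4 LDP libraries, with −0.92 (−1.31 to −0.60). Against NP cells the 4 ratios in CON lay between −0.20 and 0.06, and in LDP between −0.09 and 0.19. These are descriptions without a test, since the cells were clustered on the same genes.

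After thinning to 1000 UMIs, Acan was found in 85.9 to 90.4% of the IAF cells of CON and in 22.6 to 27.9% of the OAF cells. Col2a1 was found in 64.6 to 95.9% of IAF cells of CON and in 18.1 to 51.2% of OAF cells. Endothelial cells, which should lack both, showed Col2a1 at the same depth in 21.5 to 61.5% and Acan in 10.5 to 27.3% of cells of the CON libraries, with median depths of 1769 to 3563 UMIs. The Col2a1 shares of OAF cells lay below those of endothelial cells in each CON library and are not read as expression, while in LDP1 and LDP4 they lay above them (44.7 and 17.6% against 42.6 and 16.2%), and those of IAF cells lay above them in each. The Acan shares of OAF cells were 22.6, 24.2, 27.5 and 27.9% in CON1 to CON4, above the endothelial shares of 10.5, 10.7, 23.4 and 27.3%. The part of free RNA and of doublets in these shares was not tested. All 4 markers were found together in 58.7, 35.4, 68.7 and 53.6% of the IAF cells of CON1 to CON4 and in 64.8, 52.9, 65.2 and 52.9% of those of LDP1 to LDP4, against 4.61 to 14.3% of OAF cells. NP cells held them together as often, in 63.0, 38.3, 71.8 and 59.3% in CON and 60.6, 54.0, 65.1 and 56.8% in LDP.

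Of the 4 NP markers measured at 5 CPM or more, 2 were lower in IAF than in NP cells in 4 of 4 CON libraries. Against OAF cells 3 were higher and 1, Pdia4, was lower, at a log2 ratio of −0.29 (−0.40 to −0.23). Its ratio to NP cells was 0.02 (−0.08 to 0.11). Over all genes 13.0% were lower than in NP cells in 4 of 4, and 22.6% were higher and 38.2% lower than in OAF cells. Cd24, a surface protein of notochord-derived cells, was at 285 ± 71.7 CPM (SD, n = 4) in IAF cells and 342 ± 62.8 in NP cells of CON, and its log2 ratio within libraries was −0.28 to NP cells (−0.41 to −0.18) and 2.74 to OAF cells. S100b was at 573 ± 130 CPM in IAF and 634 ± 112 in NP cells, with ratios of −0.12 (−0.22 to −0.05) and 1.27, and Krt8, a keratin of notochordal cells, at 19.5 ± 7.47 and 24.3 ± 11.4 CPM. Krt18 and Krt19 stayed at or below 6.10 CPM in the IAF cells of every library. The summed level of the 6 NP markers in IAF cells was 847 to 1389 CPM in CON and 1200 to 1721 in LDP, with none at 0.

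Most cartilage matrix genes were higher in IAF than in OAF cells, and most genes of fibrous matrix and tendon were lower. Of 19 cartilage matrix genes with at least 5 CPM in a class, 16 were higher in IAF than in OAF cells in 4 of 4 CON libraries and 2 were lower, with a median log2 ratio of 2.09. Over all 9214 genes so measured, 22.6% were higher and 38.2% lower in 4 of 4, with a median of −0.20. Snorc, a membrane proteoglycan of chondrocytes, had a ratio of 3.97 (range 3.31 to 4.52), and Col9a2, a chain of the type IX collagen that coats type II fibrils, had 3.75 (2.80 to 4.82). Of the 9 genes of the articular surface and of stressed matrix, 6 were higher and 2 lower. Among them Prg4, which encodes the joint lubricant lubricin, had a ratio of 2.64, and Cilp, a matrix protein of the cartilage intermediate layer, 1.67. Of 8 chondrocyte transcription factors so measured, 3 were higher and 3 lower in 4 of 4 CON libraries, with a median of 0.54. Sox9, the master transcription factor of chondrocytes, had a ratio of 1.74 (1.46 to 2.27).

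Enzymes of sugar breakdown and of the response to low oxygen lay on the same side. Of 22 such genes, 20 were higher in IAF than in OAF cells in 4 of 4 CON libraries and 1 was lower, with a median of 1.11. Ldha, the enzyme that makes lactate, was at 1534 ± 174 CPM (SD, n = 4) in IAF cells of CON against 406 ± 58.7 in OAF cells, and Car9, a carbonic anhydrase induced by hypoxia, had a log2 ratio of 3.67 (2.58 to 4.87). Hif1a, the oxygen-regulated transcription factor itself, was at 2029 to 2514 CPM in IAF cells of CON, with a ratio of 1.77.

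The 12 genes with the highest ratio of IAF to OAF cells in CON were Mug1, Grem1, Col10a1, Cnmd, Spock1, Agt, F13a1, Zfp385b, Tekt1, Klhl40, Mia and Tnfrsf11b, and each kept its sign in 4 of 4 LDP libraries. Grem1, which encodes the BMP antagonist gremlin 1, was at 798 CPM in IAF and 29.0 in OAF cells at equal depth, and was found in 36.4% against 2.49% of cells. Cnmd, which encodes the cartilage angiogenesis inhibitor chondromodulin, was at 223 against 11.8 CPM. Tnfrsf11b, which encodes osteoprotegerin, a decoy receptor that restrains osteoclasts, was at 2780 against 180 CPM and in 76.9% against 14.5% of cells. Agt, the angiotensin precursor, was at 1152 against 46.5 CPM.

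The 12 lowest were Sfrp2, Myoc, Igf1, Postn, Egfl6, Pla2g2a, Lum, C1s, Col14a1, Dpysl3, Ltbp2 and Chodl, again with the same sign in 4 of 4 LDP libraries. Sfrp2, a secreted modulator of Wnt signalling, was at 9.14 CPM in IAF and 511 in OAF cells. Postn, which encodes periostin of stretched connective tissue, was at 22.3 against 590 CPM, and Lum, the keratan sulfate proteoglycan lumican, at 69.6 against 1558. Of 23 genes of fibrous matrix and tendon, 18 were lower in IAF than in OAF cells in 4 of 4 CON libraries and 2 were higher, with a median of −1.5. Thbs2 and Fn1 were the 2 higher ones, at ratios of 1.42 and 1.11. Col1a1, the type I collagen gene, was at 4734, 6198, 8469 and 3203 CPM in IAF cells of CON and at 55518 ± 12479 CPM (SD, n = 4) in OAF cells.

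For other lists the share of genes lower in IAF than in OAF cells in 4 of 4 CON libraries is set beside 38.2% over all genes. Lower were 16 of 25 genes of TGF-beta and BMP signalling (4 higher), 10 of 17 proteases and inhibitors (2 higher), 9 of 12 interferon and antigen presentation genes (0 higher), 6 of 8 complement genes (1 higher) and 7 of 9 genes of the IGF system (0 higher). All 9 posterior Hox genes measured were lower, with a median ratio of −1.44. Of 8 small leucine-rich proteoglycans 5 were lower and 1, Prelp at 0.54, was higher. Of the 6 genes of the CCN family 3 were lower and 2 higher, near the share over all genes.

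**Figure D3:**
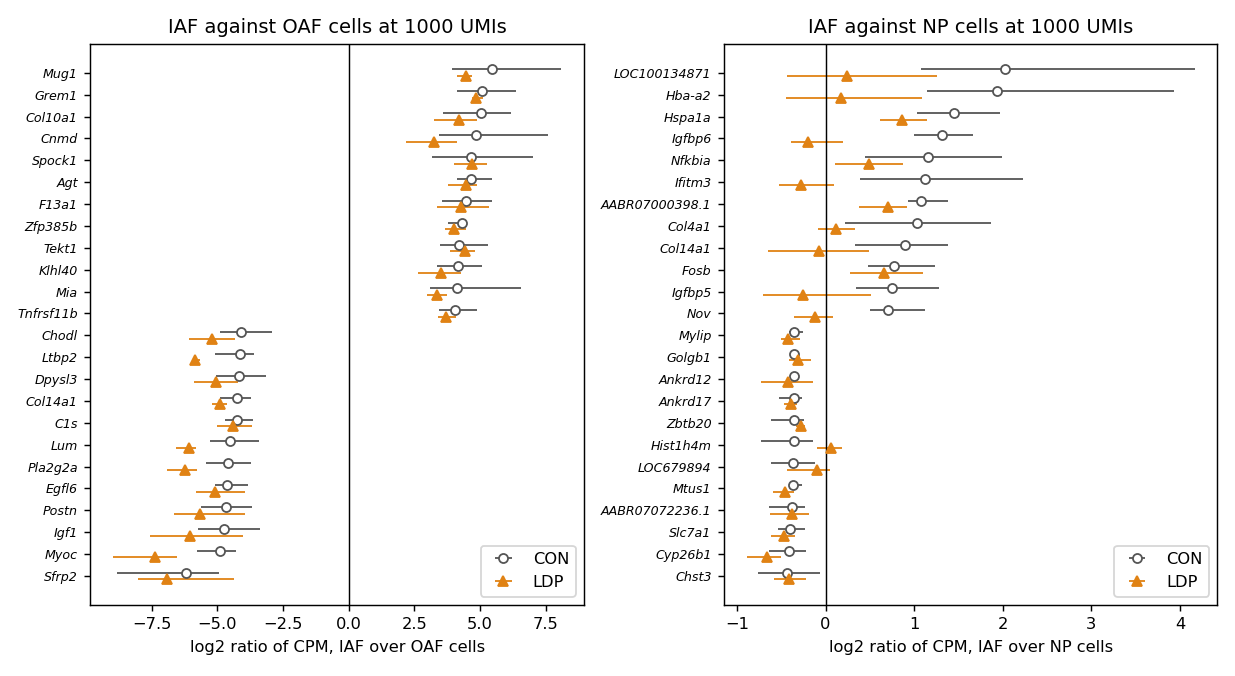
Log2 ratio of mean CPM (horizontal axis) at 1000 UMIs per cell for the 12 highest and 12 lowest genes in CON, IAF over OAF cells at left and IAF over NP cells at right, with the mean of 4 libraries as a point and their range as a bar. The ratios to OAF cells run from −6.17 to 5.44 in CON and keep their sign in LDP, whereas those to NP cells run from −0.43 to 2.03 and several cross 0 in LDP.

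Against NP cells at equal depth little was left. Of 1457 genes with at least 100 CPM in either class over the 8 libraries, the median absolute log2 ratio was 0.08 in CON and 0.10 in LDP, and 6 genes in CON and 0 in LDP differed by more than 1. Of 1675 such genes in IAF and OAF cells, the median was 0.53 in CON and 0.55 in LDP, and 482 and 491 differed by more than 1. Across genes the ratios of CON and LDP went together for OAF cells (Pearson's r = 0.93, Spearman's rho = 0.92) and less for NP cells (0.54 and 0.59). Genes are not independent, and the CON and LDP ratios come from clusterings made apart.

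The named genes had at least 100 CPM in the CON libraries, a floor that lets in more genes than that over 8 libraries. The genes highest in IAF over NP cells of CON were LOC100134871, Hba-a2, Hspa1a, Igfbp6, Nfkbia, Ifitm3, AABR07000398.1, Col4a1, Col14a1, Fosb, Igfbp5 and Nov. They include globin (Hba-a2, at 272 against 82.0 CPM), the heat shock protein Hspa1a (103 against 36.5 CPM), an endothelial marker (Ifitm3, 105 against 41.7 CPM) and the OAF markers Igfbp5 (531 against 318 CPM) and Igfbp6 (144 against 56.7 CPM). In LDP the mean ratio of Igfbp6 was −0.20, of Ifitm3 −0.28, of Igfbp5 −0.25, of Nov −0.12 and of Col14a1 −0.07, so that these 5 did not keep their sign. Hspa1a, Nfkbia, AABR07000398.1 and Fosb were higher than in NP cells in 4 of 4 LDP libraries too. The lowest were Chst3, which encodes a chondroitin sulfotransferase, Cyp26b1, which clears retinoic acid, and Slc7a1, an amino acid carrier, at −0.43 to −0.40 in CON and −0.66 to −0.41 in LDP, with AABR07072236.1, LOC679894, Mtus1, Zbtb20, Hist1h4m, Ankrd17, Golgb1, Mylip and Ankrd12 at −0.38 to −0.35 in CON. Of these 12, 10 were lower in 4 of 4 LDP libraries.

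All 6 OAF markers were higher in IAF than in NP cells in 4 of 4 CON libraries, with a median of 1.03 on the log2 scale, and 0 of 4 measured NP markers were. In LDP the mean ratio was −0.75 for Col1a1, −0.5 for Myoc, −0.25 for Igfbp5, −0.21 for Lum and −0.2 for Igfbp6, and Fibin alone kept its sign in 4 of 4 libraries, at 0.33. Higher in 4 of 4 CON libraries were also 6 of 23 genes of fibrous matrix and tendon, 4 of 8 small leucine-rich proteoglycans and 1 of 19 cartilage matrix genes. Over all genes 8.32% were higher and 13.0% lower in 4 of 4. Tnmd, which encodes tenomodulin of tendon cells, was found at equal depth in 2.58, 1.88, 8.29 and 1.86% of IAF cells of CON1 to CON4 and in 1.09, 0.633, 1.69 and 0.997% of NP cells.

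Each disc cell of at least 1000 UMIs was also assigned to the CON mean profile (IAF, NP or OAF) under which its UMIs were most likely. Of the cells named IAF, 30.9, 71.4, 60.4 and 42.5% in CON1 to CON4 and 34.1, 22.1, 31.0 and 81.3% in LDP1 to LDP4 lay nearest to the IAF profile. Most of the rest, 63.7, 24.3, 35.6 and 53.7% in CON and 65.5, 76.8, 68.5 and 18.2% in LDP, lay nearest to the NP profile. Cells named OAF returned to the OAF profile in 94.3 to 96.9% in CON and 83.0 to 90.1% in LDP. Of the cells named OAF, 2.8 to 5.0% in CON and 9.9 to 15.3% in LDP lay nearest to the IAF profile. NP cells returned to the NP profile in 84.3 to 89.2%, save in LDP4 with 52.5%. The OAF profile took 5.4, 4.3, 4.0 and 3.8% of the IAF cells of CON1 to CON4, but 0.4, 1.2, 0.6 and 0.5% of those of LDP1 to LDP4. CON and LDP libraries did not overlap in that share.

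**Figure D4:**
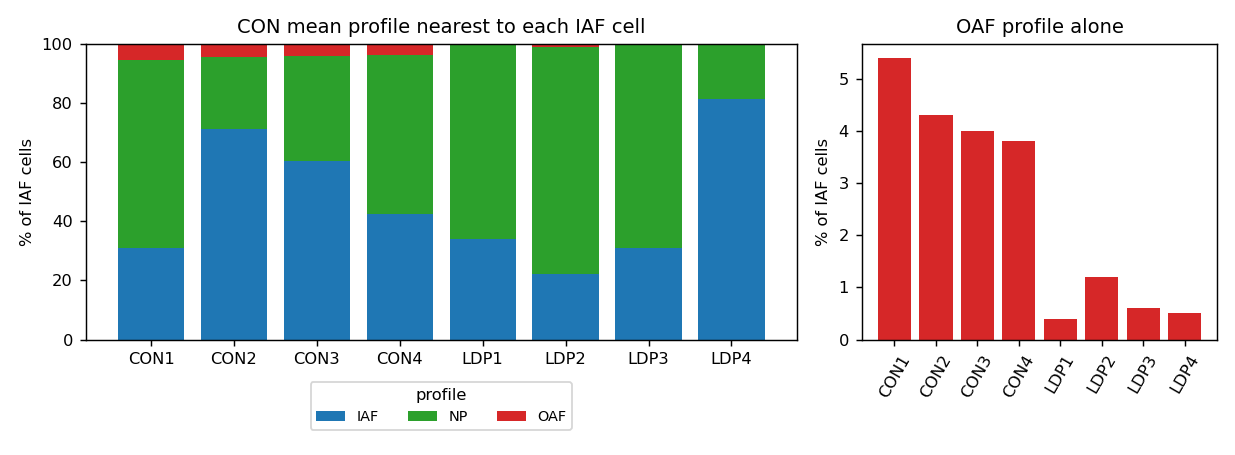
Percentage of the cells named IAF (vertical axis) that lie nearest to the CON mean profile of IAF, NP or OAF cells in each library (left), and the share of the OAF profile alone (right). The OAF profile takes 3.8 to 5.4% of the IAF cells of CON and 0.4 to 1.2% of those of LDP.

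Among IAF cells of a library, transcripts of type I and type II collagen varied widely, and those of globin did in some libraries. The Fano factor, the variance of the thinned UMIs over their mean (near 1 for counting alone), had a median of 1.06 over 1426 genes in CON. For Col1a1 it was 66.1 as a mean of 4 CON libraries (30.3 to 120) and 32.9 in LDP (24.9 to 38.5), for Col2a1 31.7 (19.7 to 40.3) and 27.8 (9.17 to 39.9). In CON1 the 10th percentile, median and 90th percentile of Col2a1 were 0, 5 and 52 UMIs of 1000, and in LDP4 they were 0, 2 and 13. At least 20 UMIs of Col2a1 were found in 25.6, 7.91, 20 and 15.9% of the IAF cells of CON, at least 20 of Col1a1 in 7.16, 4.71, 12.4 and 4.1%, and both in 0.942 to 3.59%. In LDP, Col1a1 passed that floor in 1.96 to 2.94% of IAF cells.

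The others among the 12 most variable genes were LOC100134871 (66.3, from 1.2 to 107 over the CON libraries), Hba-a2 (40.9, from 0.964 to 67.2), AC134224.3 (16.6), Mgp (14), Ibsp (13.5), Sparc (12.9), Igfbp5 (11.8), Fn1 (10.5), RGD1305645 (9.26, listed as Ecrg4 in RefSeq) and Clec3a (7.14), given as mean Fano factors in CON. Mgp encodes the matrix Gla protein that inhibits mineral deposition, and Ibsp the bone sialoprotein of mineralizing matrix. Ibsp was found in 10.7 to 14.5% of the IAF cells of CON and 8.42 to 14.5% of those of LDP, and its Fano factor ran from 3.80 to 37.3 over the CON libraries. Col10a1, the collagen gene of hypertrophic chondrocytes, was found in 2.18, 18.1, 5.12 and 2.22% of the IAF cells of CON1 to CON4, 2.95% of the NP cells of CON2 and 0 to 0.439% of OAF cells of CON. In LDP it was found in 2.98 to 7.13% of IAF cells.

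LDP was then compared with CON within IAF cells, with the rat as block, by limma on the log2 mean CPM. The classes had been drawn apart in the groups, so the test compares cells that share a name rather than cells chosen by 1 rule. At a Benjamini-Hochberg adjusted p of 0.05, 0 of 7749 genes were higher and 0 were lower in LDP (0% called in each direction), and the smallest adjusted p was 0.0636. At an unadjusted limma p under 0.05, 213 genes were higher (2.75%) and 777 were lower (10.0%), and the 4 LDP libraries lay above all 4 CON libraries for 187 genes (2.41%) and below them for 553 (7.14%). The median log2 difference of all genes was −0.14. DESeq2 on the recovered counts called 49 genes higher and 98 lower, and edgeR with TMM called 0 and 0, with 439 and 470 at an unadjusted p under 0.05. The share of higher genes at that level was 21.5% with limma, 48.3% with edgeR and TMM, and 55.3% with each library centred on its median, so that the excess of lower genes depended on the scaling. Without rat 4, limma called 1 gene higher and 13 lower. At an unadjusted p under 0.05 the counts over all genes were 89 higher and 389 lower without rat 2, 112 and 393 without rat 3, 386 and 830 without rat 4, and 551 and 446 with median centring, and a list counted in 1 of these settings is to be read beside them.

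None of the 10 genes with the smallest p on the lower side passed the adjusted threshold in the limma test (adjusted p = 0.0636 for each). Tnmd was at 62.9, 117, 112 and 43.3 CPM in CON and 14.9, 22.7, 14.6 and 13.5 in LDP, a log2 difference of −2.20 (SE 0.22). Col1a1 was at 4734, 6198, 8469 and 3203 CPM in CON and 1828, 2474, 2035 and 1634 in LDP, a difference of −1.43 (SE 0.18). The groups did not overlap for either gene. Igfbp5, an IGF-binding protein of the OAF, was at 654, 339, 700 and 468 CPM in CON and 216, 147, 97.8 and 78.6 in LDP. Gsn, which encodes the actin-severing protein gelsolin, was at 1584, 1919, 1902 and 1952 CPM in CON and 954, 903, 898 and 955 in LDP, a difference of −0.98 (SE 0.13). Fndc1, Marcks, Ltbp2, Col5a3, Mmp2 and Nov made up the rest, with differences from −2.17 to −1.29. The 10 were picked among genes lower in LDP in 4 of 4 rats, so that agreement was set by the choice. Fndc1 and Ltbp2, at 3.83 and 2.51 CPM on average in LDP, met the limit of 5 CPM through CON.

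The share of OAF-profile cells among the IAF cells differed between the groups too, at 3.8 to 5.4% in CON and 0.4 to 1.2% in LDP. All 10 genes were lower in IAF than in OAF cells of CON, by −4.15 to −0.83 on the log2 scale. With the cells nearest to the OAF profile left out, the difference of Tnmd was −0.96, of Col1a1 −0.64, of Igfbp5 −1.45 and of Gsn −0.97, and the smallest adjusted p over all genes was 0.358. Cells were assigned by all genes, these genes among them, and a larger share was left out in CON than in LDP. A smaller difference of the OAF transcripts was thus set in advance in that setting. In NP cells of the same libraries Tnmd differed by 0.54, Col1a1 by −0.24, Igfbp5 by −1.11 and Gsn by −0.96. With IAF and NP cells joined, Tnmd differed by −1.05, Col1a1 by −0.77 and Gsn by −0.97, and 0 genes passed in either direction. With IAF cells redrawn as the disc cells nearest to the CON IAF profile, the difference of Tnmd was −0.04, of Col5a3 −0.14, of Col1a1 −0.58, of Mmp2 −0.59, of Igfbp5 −1.08 and of Gsn −0.88. These redrawn cells took in 39, 13, 43 and 61 cells named OAF in CON1 to CON4. In LDP1 to LDP4 they took in 80, 229, 114 and 199. Cells named OAF held Tnmd at 609 to 1960 CPM, and their part in these differences was not tested.

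On the higher side the 10 genes with the smallest p were Pla2g7, Kcnn4, Car12, Hoxd9, Il17b, Higd1a, Mlf1, Ctrb1, Cpe and Krtap17-1. Their adjusted p in the limma test was 0.0636 to 0.156. They too were picked among genes that moved the same way, here higher in LDP, in 4 of 4 rats. Pla2g7, which encodes the platelet-activating factor acetylhydrolase, was at 9.88, 3.52, 8.41 and 5.99 CPM in CON and 29.8, 14.2, 20.4 and 30.0 in LDP, a log2 difference of 1.65 (SE 0.21). Kcnn4, a calcium-activated potassium channel, was at 1.70 to 3.46 CPM in CON and 6.19 to 10.9 in LDP. Kcnn4, Car12 and Krtap17-1, at 2.41, 3.28 and 2.7 CPM on average in CON, met the limit of 5 CPM only through LDP. Higd1a, a mitochondrial protein induced by hypoxia, was at 396, 281, 374 and 625 CPM in CON and 583, 685, 620 and 1176 in LDP, and Cpe, a carboxypeptidase that trims peptide hormones, at 299, 321, 179 and 245 against 505, 475, 354 and 397. Groups overlapped for Il17b and Higd1a and not for the other 8.

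In NP cells of the same libraries Pla2g7 differed by 1.5, Kcnn4 by 1.30, Car12 by 1.13 and Cpe by 0.84, and without the OAF-profile cells the differences in IAF cells were 1.61, 1.39, 1.15 and 0.72. Il17b, a cytokine of chondrocytes, was at 21.0 to 44.8 CPM in CON and 37.8 to 78.7 in LDP and differed by 1.00 (SE 0.19) in IAF and 0.99 in NP cells.

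**Figure D5:**
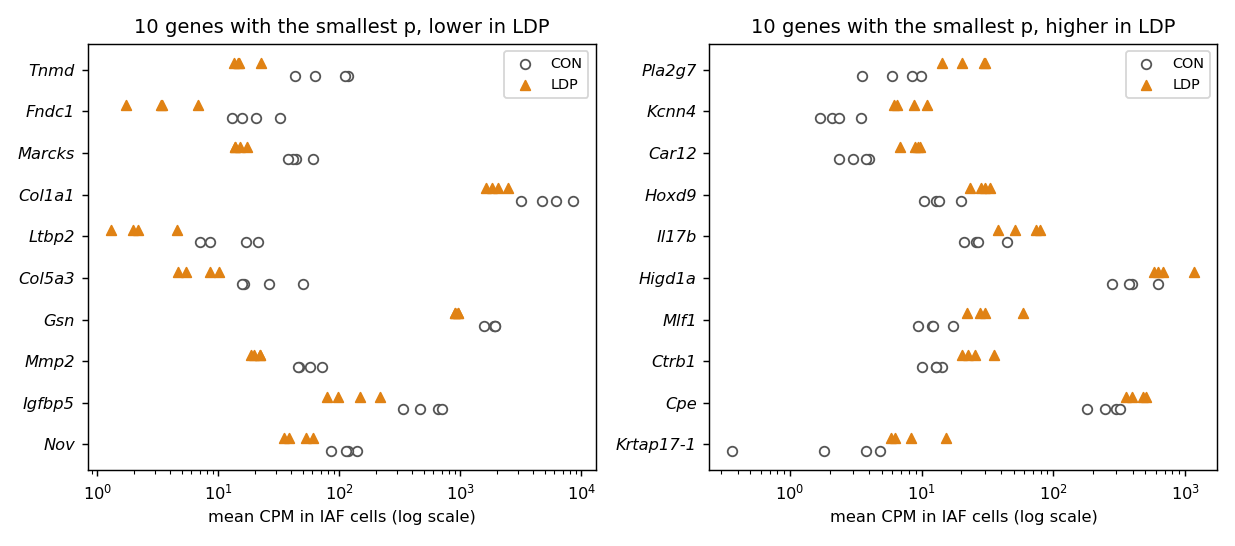
Mean CPM in IAF cells on a log scale (horizontal axis) of the 10 genes with the smallest p on the lower side (left) and on the higher side (right), with an open circle for each of 4 CON libraries and a filled triangle for each of 4 LDP libraries. The genes were picked among those that moved the same way in 4 of 4 rats. No gene passed the adjusted threshold, and the libraries of the groups overlap only for Il17b and Higd1a.

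The 4 IAF markers did not pass the test. Their log2 differences were −0.11 (SE 0.23) for Col2a1, −0.05 (SE 0.11) for Comp, −0.05 (SE 0.12) for Fmod and 0.21 (SE 0.14) for Acan, and 0 of 4 had an unadjusted p under 0.05. Without rat 4 or with median centring 1 of 4 was higher at that level, beside 386 and 551 of 7749 over all genes. Of 18 tested cartilage matrix genes, 5 were higher and 1 lower at that level, with a median of 0.29, beside 2.75% higher, 10.0% lower and a median of −0.14 over all genes. Scrg1, a small secreted chondrocyte protein, was at 508 to 790 CPM in CON and 853 to 1821 in LDP, and Snorc at 2854 to 5454 in CON and 4199 to 8556 in LDP. Col9a1, Col9a2 and Mia were the other 3 on the higher side, and Cytl1, a chondrocyte cytokine, was the lower 1, at 736 to 1576 CPM in CON and 593 to 1060 in LDP. Without rat 2 the count of higher genes was 1, beside 89 of 7749 over all genes. Of 4 tested NP markers 1, S100b, was higher, at 421 to 720 CPM in CON and 659 to 1003 in LDP. Without rat 2 or rat 3 the count of higher NP markers was 0.

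Among the listed genes counted as lower here and in the paragraphs that follow, Myoc, Kera, Postn, Adamts9, Ltbp2, Igf1, Igfbp4, Egr2, Ifit2 and Irf1, as well as the pericyte markers Rgs5 and Myh11, averaged under 5 CPM in LDP and met the limit only through CON. The lists of this paragraph stand beside 10.0% lower, 2.75% higher and a median of −0.14 over all genes. With redrawn cells they stand beside 302 lower and 206 higher of 7849. Without OAF-profile cells they stand beside 598 lower and 196 higher of 7721. The OAF profile was drawn from all genes, so leaving out its cells shrinks the differences of its own transcripts. Of 22 tested genes of fibrous matrix and tendon, 9 were lower and 1, Lox, was higher at an unadjusted p under 0.05, with a median of −0.54. Lox encodes lysyl oxidase, which crosslinks collagen, and was at 250 to 346 CPM in CON and 322 to 446 in LDP. Without OAF-profile cells 5 were lower and 1 higher, and with redrawn cells 2 and 1. Of the 6 OAF markers 5 were lower, with a median of −1.81, while Fibin was at 177 to 255 CPM in CON and 168 to 292 in LDP. The summed level of these 6 in IAF cells was 4080 to 9751 CPM in CON and 2084 to 2900 in LDP. With redrawn cells 1 of the 6 was lower, with a median of −0.63. The IGF system, which shares Igfbp5 and Igfbp6 with that list, had 4 of 7 genes lower and a median of −1.58, and 2 of 9 with redrawn cells. Of 8 small leucine-rich proteoglycans 3 were lower (Lum, Ogn and Kera), of 14 proteases and inhibitors 5 (Mmp2, Adamts1, Adamts4, Adamts9 and Ctsk), of 8 complement genes 4 and of 5 CCN genes 2, with 0 higher in each. With redrawn cells 0 of 8 small leucine-rich proteoglycans, 0 of 16 proteases and inhibitors, 2 of 8 complement genes and 2 of 5 CCN genes were lower. Without OAF-profile cells 4 of 6 OAF markers (median −1.1), 4 of 7 genes of the IGF system, 2 of 8 small leucine-rich proteoglycans, 5 of 14 proteases and inhibitors, 2 of 8 complement genes and 2 of 5 CCN genes were lower.

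Immediate early genes are switched on within minutes of stress or handling. Of 20 tested, 16 were lower and 0 higher at an unadjusted p under 0.05, beside 10.0% lower over all genes. The median was −0.82 beside −0.14 over all genes, and 0 of the 20 passed the adjusted threshold. The libraries of LDP lay below those of CON without overlap for 4 of the 20, beside 7.14% of all genes. Egr1, not among the 16, was at 132, 1822, 95.7 and 104 CPM in CON and 83.2, 68.8, 102 and 59.1 in LDP. CON2 stood apart here, in its NP cells too, where Egr1 was at 2614 CPM against 77.4 to 110 in the other CON libraries. Klf6, a stress-induced transcription factor, was at 64.9, 159, 73.3 and 37.7 CPM in CON and 40.9, 46.4, 26.7 and 14.9 in LDP, a difference of −1.28 (SE 0.21) with an adjusted limma p of 0.105. Without rat 2 the count of lower genes was 5 of 20 and the median −0.54, beside 389 of 7749 and −0.17 over all genes. With counts scaled by TMM in edgeR it was 7 of 20 beside 470 of 7749, and with each library centred on its median 10 of 20 beside 446.

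Of 23 tested genes of hypoxia and glycolysis, 9 were higher at an unadjusted p under 0.05, beside 2.75% higher over all genes, and 2 were lower, with a median of 0.29. The 9 were Aldoa, Gapdh, Pgk1, Ldha, Pdk1, Bnip3, Car9, Car12 and P4ha1, of which Car12 met the limit of 5 CPM only through LDP. Pdk1, the kinase that holds pyruvate back from the mitochondria, was at 20.1, 17.2, 17.4 and 20.5 CPM in CON and 33.8, 32.8, 24.6 and 47.4 in LDP, without overlap. Ldha was at 1742, 1412, 1614 and 1370 CPM in CON and 1982, 1853, 1844 and 2153 in LDP, also without overlap. The 2 lower genes were Pfkfb3 and Ankrd37. The count of higher genes was 6 without rat 3, 7 without rat 2, 8 without rat 4, 9 without OAF-profile cells, 5 with redrawn cells and 13 with each library centred on its median.

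Of 13 tested genes of the circadian clock 7 were lower and 0 higher, with a median of −0.42, beside 10.0% lower and a median of −0.14 over all genes, among them Cry2 at 52.4 to 71.5 CPM in CON and 26.8 to 47.6 in LDP. The count was 2 without rat 2, 3 without rat 3, 3 with each library centred on its median, and 4 with edgeR and TMM or with redrawn cells, where over all genes 389, 393, 446, 470 and 302 were lower. Of 8 chondrocyte transcription factors 4 were lower, and Sox9 was at 610, 886, 721 and 578 CPM in CON and 502, 562, 515 and 414 in LDP, a difference of −0.48 (SE 0.14). That count of 4 was 2 without rat 2, 1 without rat 3, 1 with median centring and 2 with edgeR and TMM. The counts of this paragraph stand beside 2.75% higher and 10.0% lower over all genes. Of 21 genes of TGF-beta and BMP signalling 3 were higher and 5 lower, of 15 cytokines, pain and angiogenic factors 1 and 4, of 20 antioxidants and metallothioneins 3 and 4, of 21 ER chaperones 0 and 3, and of 8 interferon and antigen presentation genes 0 and 3. The count for ER chaperones lies near the share over all genes, and was 0 with median centring, with edgeR and TMM and without rat 2. The interferon count was 1 without rat 2 or rat 3, and 5 without rat 4. For TGF-beta and BMP signalling the counts were 2 higher and 3 lower without rat 2, and 4 and 3 with edgeR and TMM. For antioxidants the lower count was 1 without rat 2 or rat 3 and with edgeR and TMM, and 0 with redrawn cells. For cytokines the higher count was 3 without rat 2 or rat 3, and the lower count was 2 with edgeR and TMM and 1 without OAF-profile cells. Of 9 hypertrophy genes 1 was higher (Ibsp, at 258 to 834 CPM in CON and 277 to 2044 in LDP) and 0 were lower, and the higher count was 3 without rat 2 or with redrawn cells and 0 without rat 3. Of 9 surface and stress matrix genes and 5 cell cycle genes, 0 were called in either direction at that level.

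Posterior Hox genes are ordered along the chromosome as they are used along the trunk. Of 5 tested, 1 was higher and 1 lower at an unadjusted limma p under 0.05, with a median of −0.17, and 0 passed the adjusted threshold. Over all genes 2.75% were higher and 10.0% lower, with a median of −0.14. Without rat 2, 1 was higher and 2 were lower with a median of −0.37, beside 89 and 389 of 7749 over all genes. Hoxd9 was at 19.9, 10.4, 12.8 and 13.6 CPM in CON and 33.2, 30.1, 23.2 and 28.3 in LDP, a difference of 0.99 (SE 0.18). Hoxc8 was at 15.4, 21.3, 26.6 and 25.95 CPM in CON and 4.74, 12.1, 11.9 and 9.05 in LDP, a difference of −1.20 (SE 0.19). Groups did not overlap for either gene, beside 2.41% of all genes on the higher and 7.14% on the lower side. Hoxc10 was at 3.73 to 12.1 CPM in CON and 7.34 to 10.3 in LDP, with overlap. Hoxd10, under the limit on low values, was at 0 to 3.84 CPM in CON and 4.51 to 11.6 in LDP. The same order held in OAF cells, where Hoxd10 was at 0.642 to 13.1 CPM in CON and 19.8 to 51.0 in LDP. The LDP discs lay below the CON discs in every rat, so level and puncture cannot be told apart.

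Of the markers of other cells, those of endothelium and pericytes were highest in the IAF cells of CON2 and CON3, while 0 of 3 myeloid and 0 of 2 erythroid markers tested had an unadjusted p under 0.05. The 6 endothelial markers summed to 77.5, 319, 516 and 98.0 CPM in CON and 35.3 to 67.9 in LDP. Ifitm3 alone was at 63.95, 90.1, 219 and 75.5 CPM in CON and 30.5 to 50.2 in LDP, without overlap. It was also an OAF transcript, at 888 CPM on average in OAF cells of CON. At an unadjusted p under 0.05, 5 of 5 tested endothelial markers were lower, beside 10.0% over all genes. Without rat 2 it was 3 of 5, beside 389 of 7749. Flt1, Plvap, Cdh5 and Emcn, at 3.05, 2.15, 2.35 and 1.49 CPM on average in LDP, met the limit of 5 CPM through CON2 and CON3, and their groups overlapped. Plvap, a protein of fenestrated vessels, was at 3.17, 63.7, 87.4 and 6.07 CPM in CON. The 4 pericyte and smooth muscle markers summed to 23.4 to 223 CPM in CON and 15.8 to 38.5 in LDP, with 3 of 4 lower and a median of −1.49. Without rat 2 it was 2 of 4 with a median of −1.56, and without rat 3 2 of 4 with −0.82. Over all genes 389 and 393 of 7749 were lower there. Without rat 4, 1 of the 3 myeloid markers was lower, beside 830 of 7749. With redrawn cells 0 of these 4 were lower and the median was 0.56, whereas 5 of 6 endothelial markers were lower, beside 302 of 7849 over all genes. The redrawn cells also differed in Schwann cell markers, of which 2 of 2 tested were higher in LDP at an unadjusted limma p under 0.05, with a median of 3.18. Over all genes 206 of 7849 were higher in that setting. In the cells named IAF the 3 Schwann cell markers summed to 2.53 to 6.49 CPM in CON and 1.33 to 5.65 in LDP, the 7 myeloid markers to 24.7 to 124 and 52.5 to 99.1, and the 6 lymphoid markers to 1.02 to 3.30 and 1.19 to 39.2. The 3 listed erythroid markers summed to 39.4 to 600 CPM in CON and 1.61 to 1696 in LDP. No marker of these lists was at 0 in all 8 libraries. In a further setting, cells were left out that held UMIs of at least 2 markers of the endothelial, myeloid, lymphoid or erythroid list. Markers of OAF cells, pericytes and Schwann cells were not used for this. The share of IAF cells left out was 1.53 to 21.1% in CON and 0.73 to 31.7% in LDP. In the cells kept, 1 gene was higher (Pla2g7) and 12 were lower in LDP, Tnmd, Fndc1 and Col1a1 among them.

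IAF cells were deeper in LDP. Their median UMIs were 3438, 3260, 2442 and 3789 in CON and 4732, 4100, 4386 and 6403 in LDP, a difference of 1672 between the group means without overlap (two-sided exact permutation test over libraries p = 0.0286, the smallest that 4 against 4 can give, and 0.171 after Benjamini-Hochberg adjustment over the 6 values so tested). Depth was higher in LDP in 4 of 4 rats, and the paired sign-flip test gave the smallest p that 4 pairs allow, which lies above 0.05. At 1000 UMIs, a cell showed 548 ± 12.4 genes in CON and 527 ± 29.3 in LDP (SD, n = 4, exact permutation p = 0.229), and LDP4 was the lowest at 483. Mitochondrial reads made 3.595 ± 0.461% in CON and 3.15 ± 0.245% in LDP (exact permutation p = 0.114), and ribosomal reads 11.7 ± 1.46% and 13.1 ± 2.46% (p = 0.429 by the same exact test).

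Ngfr encodes p75, a receptor for neurotrophins. At 1000 UMIs Ngfr was found in 1.22, 1.51, 1.7 and 1.4% of IAF cells of CON and 1.61, 2.36, 1.42 and 0.45% of those of LDP, and the groups overlapped (mean 1.456 ± 0.202% and 1.462 ± 0.786%, exact permutation p = 1.00). LDP2 was the highest and LDP4 the lowest of the 8 libraries. Endothelial cells showed Ngfr at that depth in 0.0608 to 0.311% of cells of CON and 0.221 to 0.868% of cells of LDP, below the IAF cells of the same library in all 8. Immune cells reached 0.482% in LDP4 and 3.97% in LDP2, where they were 21 cells, both above the IAF cells. With all UMIs, Ngfr was found in 3.62 to 5.92% of the IAF cells of CON and 2.61 to 8.07% of those of LDP. OAF cells showed Ngfr at 1000 UMIs in 0.661 to 1.13% of cells of CON and 2.08 to 4.46% of cells of LDP, above the IAF cells in each LDP library. The shares of positive cells that named the OAF subclusters include the study's share for Ngfr. This order was thus partly set by the naming and is a description only. NP cells showed it in 0.942 to 2.15% of cells of CON and 0.597 to 2.03% of cells of LDP.

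Lastly, the LDP-minus-CON difference of IAF cells was tested against that of NP and OAF cells in the same libraries. Against NP cells 1 of 7756 genes passed an adjusted limma p of 0.05 (0% more and 0.0129% less in IAF cells), and at an unadjusted limma p under 0.05 the difference was more in 64 and less in 1187. This was Angptl1, an angiopoietin-like secreted protein, which was at 41.2, 21.3, 38.1 and 27.9 CPM in IAF cells of CON and 12.6, 16.2, 8.01 and 14.7 in those of LDP, but at 20.5 CPM in NP cells of CON and 19.4 in those of LDP on average. The difference of differences was −1.19 (SE 0.09), with an adjusted limma p of 0.0289. Angptl1 was also an OAF transcript, at 251 to 616 CPM in OAF cells of CON, and it did not pass at 1000 UMIs per cell, where 0 genes did. Without rat 2, 3 or 4 the count was 0, and without rat 1 it was 3.

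Against OAF cells 35 of 8476 genes (0.413%) had a higher and 237 (2.80%) a lower difference in IAF cells. Among the largest on the lower side were Npy1r, Rgs5, Scn7a and Myh11, transcripts of blood vessel walls and of nerve sheaths that lay in the OAF subcluster of LDP. Myh11, a smooth muscle myosin, was at 3.95 to 7.82 CPM in OAF cells of CON and 70.6 to 264 in those of LDP, and at 1.32 to 43.5 CPM in IAF cells. Rgs5, a pericyte marker, was at 0.253 to 15.3 CPM in OAF cells of CON and 60.5 to 168 in those of LDP, but also at 62.9 and 59.1 CPM in the IAF cells of CON2 and CON3, against 0.545 to 6.51 in the other 6 libraries. On the higher side the 5 largest were LOC103689965, Tmem100, Agtr2, LOC691995 and Dnajc4. Agtr2 was at 0.276 and 0.147 CPM in IAF cells of CON and LDP, against 19.9 and 7.54 in OAF cells, so its value is that of OAF cells. Scn7a, at 2.28 and 0.429 CPM in IAF cells of CON and LDP and at 1.09 in OAF cells of CON, was at 82.3 CPM in OAF cells of LDP alone. Npy1r was at 13.5 and 0.627 CPM in IAF cells and at 1.76 and 50.3 in OAF cells. Tmem100, a membrane protein downstream of BMP receptors, was at 20.3 to 31.7 CPM in IAF cells of CON and 23.4 to 43.2 in those of LDP, and at 16 to 41.8 and 4.46 to 30.3 in OAF cells. Its difference of differences was 1.60 (SE 0.19), with an adjusted limma p of 0.00597. The count of 272 genes in both directions became 46 at 1000 UMIs per cell, and 174, 147, 113 and 93 without rats 1, 2, 3 and 4.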

How the data were processed

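Rat disc cells were sequenced with 10x Genomics 3′ chemistry 3.1 in 8 libraries (4 CON, 4 LDP), and processed in Partek Flow with genome build rn6 per the submitters' processing notes; aligner and doublet handling are not given in the sources used here. The deposited gene values are log2(CPM + 1) per cell. The authors also deposited each cell's total in expected counts (not whole), its number of genes as a count, and mitochondrial and ribosomal percent. Dividing out the total returned whole UMIs within 0.02 for 99.4% of values above 0, and these were rounded. CON listed 14124 genes and LDP 14202, 13878 of them shared.

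Cells were thinned without replacement (seeds from 20). CPM was averaged per library, and log2(mean CPM + 1) was fitted by limma 3.58.1 (trend, rat as block) for genes of at least 5 CPM on average. Libraries of a number come from the same rat; their deviations correlated at −0.0775, 0.257, 0.108 and −0.0800. On simulated data with 200 changed genes among 7749, limma recovered 46% at a log2 change of 1 and 91.5% at 2. With edgeR it was 54.5 and 99.5%, and with DESeq2 84.5 and 99.5%. The changed genes were drawn only from those of at least 20 CPM on average, so recovery below that was not tested. The data simulated for edgeR and DESeq2 held no rat effect. Alternatives were edgeR 4.0.16, DESeq2 1.42.0, other filters, pseudocounts, depths and cell sets. IAF cells of a library held 1873508 to 26845089 UMIs.

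Named were markers, listed genes, the 12 highest and lowest ratios (at least 100 CPM, same sign in 4 CON libraries), the 12 most variable genes (at least 0.1 UMIs), and up to 15 called or the 10 genes of smallest p per direction. For LDP against CON these last were drawn only from genes that moved the same way in 4 of 4 rats. Members and the 29 gene lists were chosen with earlier results of these data known. The cells with the OAF profile, the join of IAF and NP cells and the 2000 to 5000 UMI window were added after seeing the data. The 8-week files were not used here, and results on some genes are not reported here.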

Additional observations from a re-analysis of the deposited data

Results flagged for a closer look

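In 3 of 82 groups of 4 libraries 1 library lay apart by Dixon's criterion, where chance flags about 1 in 20. Tnmd in IAF cells of LDP was at 22.7 CPM in rat 2 and 13.5 to 14.9 in the others. Gsn in IAF cells of CON was at 1584 CPM in rat 1 and 1902 to 1952 in the others. The 6 NP markers in IAF cells of LDP summed to 1721 CPM in rat 4 and 1200 to 1284 in the others.

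The LDP-minus-CON difference of IAF cells departed from that of NP cells for Angptl1 (−1.19 on the log2 scale). It departed from that of OAF cells by 1.75 for LOC103689965, 1.60 for Tmem100, 1.46 for Agtr2 (at 0.276 and 0.147 CPM in IAF cells, so that the OAF cells set it), 1.26 for LOC691995 and 1.21 for Dnajc4. On the other side the departure was −6.80 for Npy1r, −6.80 for Rgs5, −6.21 for Scn7a and −6.06 for Myh11. In OAF cells Npy1r was at 1.76 CPM in CON and 50.3 in LDP and Scn7a at 1.09 and 82.3, and Scn7a passed the filter through the OAF cells of LDP. Each of these passed an adjusted limma p of 0.05.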

How the results depend on the processing

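Within IAF cells, 0 genes higher and 0 lower in LDP became 0 and 5 without the rat block and 49 and 98 with DESeq2. The counts were 1 and 12 without the cells holding at least 2 endothelial, myeloid, lymphoid or erythroid markers. Leaving out 1 rat gave 0 to 1 higher and 0 to 13 lower genes, and the highest counts came without rat 4. On simulated data DESeq2 also called 29 and 32 unchanged genes, edgeR 6 and 10, and limma 1 and 6. The simulated data of limma were not those of edgeR and DESeq2, so these counts do not rank the tools. Both counts stayed at 0 under the other pseudocounts and filters, median centring, both edgeR fits, 1000 UMIs, redrawn cells, IAF and NP cells together, the 2000 to 5000 UMI window and the OAF-profile cells left out. Of the 20 genes with the smallest p, 18 to 20 of which could be fitted in each setting, 0 turned direction, though Tnmd came to −0.04 with redrawn cells. Median centring moved the split at an unadjusted p under 0.05 from 213 higher and 777 lower to 551 and 446.

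The 1 gene that differed from NP cells was lost (0) with a filter at 1 CPM and at 1000 UMIs, and leaving out 1 rat gave 0 to 3. The 272 genes that differed from OAF cells became 491 with a pseudocount of 5, 175 with a filter at 1 CPM and 46 at 1000 UMIs, and 93 to 174 without 1 rat. The rat as block changed neither count by over 1.5 times (1 and 259 without it).

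The depth difference of 1672 UMIs was no longer below 0.05 with the rats paired as a replicate block (1672), with redrawn cells (1364 UMIs, exact permutation p = 0.286) and without 1 rat (1359 to 1950 UMIs), where neither 4 pairs nor 3 libraries against 3 can go below 0.05. The Ngfr difference of 0.00528 percentage points turned to −0.0533 at 500 UMIs and ran from −0.277 to 0.322 without 1 rat. The causes were not tested. With 574 IAF cells CON2 was the least precise library.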
